A study of Danio rerio with 16 samples.

Results

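Zebrafish embryos injected with the Bik-1 LNA were compared at 14 and 11 hours post fertilization (hpf), across all genes. An LNA is a locked nucleic acid, a short antisense oligonucleotide with modified sugars that binds RNA tightly, and this one was directed at BHIKHARI, a retrovirus that became part of the zebrafish genome and is inherited with it. The comparison was given by the labels, and it used 4 of the 16 libraries of the series, 2 replicates at each time. The embryos were wild type (WT) and received the LNA at 0 hpf, and whole embryos were taken for polyadenylated RNA. The controls used beside them, 2 libraries at each of the same times, were WT embryos given a Scrambled LNA. The labels number the replicates without saying whether they were separate clutches or injections. A p-value here, unless another fit is named, reflects only the spread between replicates, shared over all 16 libraries of the series. Some of these were taken at times other than 11 and 14 hpf. Part of the spread may be technical. In RNA of whole embryos, fewer cells of a type cannot be told apart from less RNA per cell.

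Between these times the zebrafish embryo leaves the end of gastrulation behind and forms somites, blocks of mesoderm cut off one after another from the presomitic tissue at the tail. Somite cells begin to differentiate into slow and fast muscle, the neural plate is regionalised and its first neurons appear, and the precursors of vessels, blood and kidney arise in the lateral mesoderm. Genes of the gastrula organizer give way to genes of differentiating tissue.

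The 11 hpf knockdown libraries held 6124632 and 7694887 counts and the 14 hpf libraries 4399855 and 5468473. Levels are given below as CPM, counts scaled to a common library size, in the order replicate 1, replicate 2. A level is per library and not per transcript length, so levels of different genes are not compared. In the 11 hpf knockdown libraries 3 counts made 0.487 and 0.367 CPM, so folds from levels near or under these are uncertain. Of 28 marker genes of 11 tissues, 27 had counts in all 4 libraries, the exception being gata1a of blood with 0 counts in 11 hpf replicate 2. The replicates at 11 hpf stood apart: on the first principal component, which ordered the libraries of the series by time, they lay at -8 and -44.5, and the 14 hpf replicates at 18.3 and 32.4. Replicate 2 at 11 hpf lay farther from the 14 hpf libraries than replicate 1 did. Ribosomal protein genes took 7.84% and 6.35% of counts at 11 hpf and 8.03% and 9.07% at 14 hpf. The part of these differences between libraries in the results below was not tested.

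The targeted retrovirus was present at both times. Its long terminal repeats, counted as the family BHIKHARI_LTR, stood at 124 and 95.5 CPM at 11 hpf and at 51.5 and 53.5 CPM at 14 hpf. Both later libraries were lower than both earlier ones. The log2 fold change was -1.06 (SE 0.14, n = 2 and 2, edgeR adjusted p = 0.0013). In controls the same family went from 437 and 323 to 214 and 216 CPM (log2 fold change -0.82, edgeR adjusted p = 0.003), and every knockdown library lay below every control library of its time. The part of the retrovirus that holds its coding sequence, BHIKHARI_I-int, had 36.2 and 92.9 CPM at 11 hpf and 33.6 and 33.9 CPM at 14 hpf. Its 11 hpf replicates differed by more than the times did, and it did not pass the test (log2 fold change -0.94, SE 0.39, edgeR adjusted p = 0.35). Without 11 hpf replicate 2 its log2 fold change was -0.1 (edgeR adjusted p = 0.94), without 11 hpf replicate 1 it was -1.46 and passed (0.0049), and it also passed with no filter on low counts (-0.99, 8.4e-09).

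Among 16894 genes tested, 214 were higher and 72 lower at 14 hpf, 1.69% of all genes (1.27% higher and 0.426% lower). The test was edgeR's quasi-likelihood F-test with Benjamini-Hochberg adjustment over all genes and families, with a threshold of 0.05. Adjusted p-values below come from it. Of the higher genes 197 differed by more than 2-fold, and of the lower genes 34. The median log2 fold change over all genes was 0.023 and the median SE 0.34. The libraries of the times did not overlap, with 14 hpf higher, for 22.1% of all genes and, with 14 hpf lower, for 17.9%. Genes named below were mostly picked among called genes, and some by their lack of overlap. Where their times do not overlap, that adds no support. At an unadjusted p under 0.05 there were 1302 higher and 842 lower genes. Fitted alone, the 4 control libraries of 11 and 14 hpf gave 346 called genes, against 463 in the fit of all 16. The knockdown count of 286 rested on the spread shared over all 16 libraries: with the 4 knockdown libraries fitted alone 0 genes were called, although 1325 had an unadjusted p under 0.05. It was 48 without 14 hpf replicate 2, 68 without 11 hpf replicate 2 and 704 without 11 hpf replicate 1, and 37 of the genes kept their call without any 1 of the 16 libraries.

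**Figure D1:**
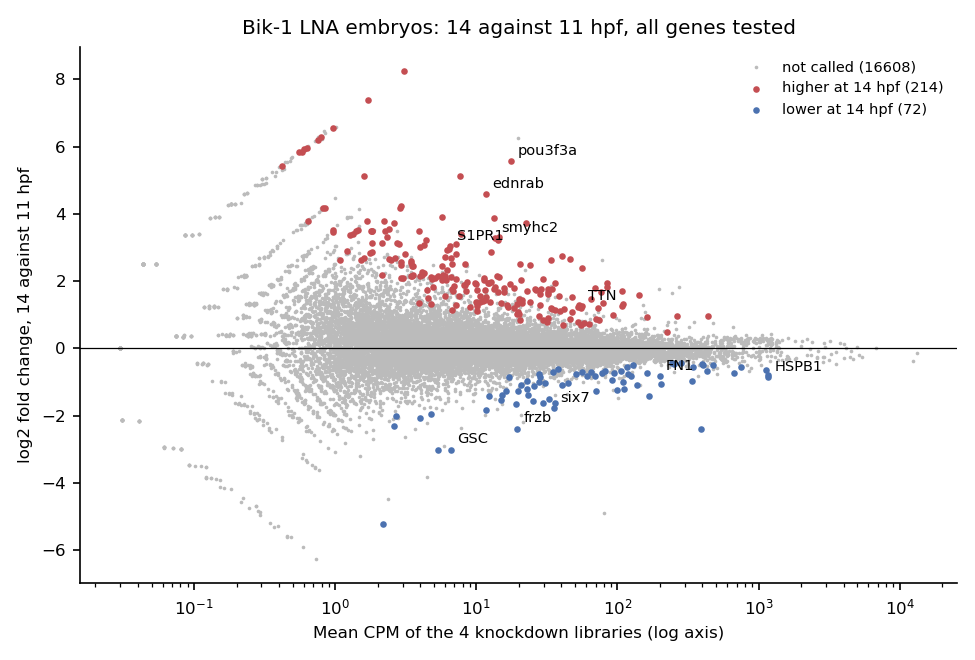
Log2 fold change of each gene tested (14 against 11 hpf in Bik-1 LNA embryos) against its mean CPM in the 4 libraries, on a log axis. The 214 genes called higher (red) reach larger folds than most of the 72 called lower (blue), and many lower genes lie at high CPM. The lines of points at low CPM are genes with few counts.

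Contractile genes of muscle were among those that rose. Of 45 tested genes of the sarcomere, 13 rose and 0 fell, with a median log2 fold change of 1.28 over all 45. Slow myosin heavy chain smyhc2 had 3.41 and 1.71 CPM at 11 hpf and 22 and 26.8 CPM at 14 hpf. The times did not overlap, and its log2 fold change was 3.29 (SE 0.35, adjusted p = 0.0003). Its relative smyhc1 went from 32 and 11.9 to 119 and 145 CPM and did not pass. Reads of these related genes could be split between them. The titin gene TTN (ENSDARG00000028213), which spans the sarcomere from Z-disc to M-line, went from 37.5 and 29.0 to 78.4 and 80.2 CPM (1.26, SE 0.16, adjusted p = 0.00083). Tropomyosin tpma, which covers myosin binding sites along actin, went from 18.8 and 12.2 to 44.2 and 53.5 CPM (1.67, SE 0.24, adjusted p = 0.0026). The myosin light chain gene MYL1 (ENSDARG00000014196) had 0 counts at 11 hpf and 65 at 14 hpf, at 4.74 and 7.45 CPM, which is at least 29.1-fold higher with 3 counts over the 11 hpf group. The muscle actin actc1b had 17.9 and 8.07 CPM and then 65.1 and 94.6 CPM (2.66, adjusted p = 0.0029). Reads of near-identical actin genes could be split between them, so the values of actc1b and of the 2 genes named ACTA1 are uncertain. Troponin T tnnt2c went from 0.487 and 0.367 CPM to 7.32 and 22.7 CPM, with the 14 hpf replicates far apart (5.13, SE 0.76, adjusted p = 0.015). The light chains myl13 (3.89) and myl10 (1.46), desmin DES (ENSDARG00000058656, 1.42), the C-protein relative mybphb (1.28) and troponin I TNNI2 (ENSDARG00000035958, 1.53) also rose, with log2 fold changes as given. Smyhc2, MYL1, TTN, tpma and actc1b kept their call without any 1 library. Without 11 hpf replicate 2, 8 sarcomere genes rose, with DES, mybphb, myl10, myl13 and tnnt2c lost (adjusted p 0.1 to 0.25), and ACTA1 (ENSDARG00000055618), at 3.24 with all libraries, had 2.5. Without 14 hpf replicate 2, 7 rose, with both ACTA1 genes, DES, TNNI2, mybphb and myl10 lost (0.056 to 0.44), and tnnt2c and myl13 had 4.06 and 2.99. Without 11 hpf replicate 1, myl13 and tnnt2c were lost (0.05 to 0.074), and ACTA1, actc1b, TNNI2 and myl13 had 4.38, 3.31, 2.25 and 4.5. TNNI2 was also lost without 14 hpf replicate 1 (0.062) or either knockdown library of 18 hpf (0.051).

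**Figure D2:**
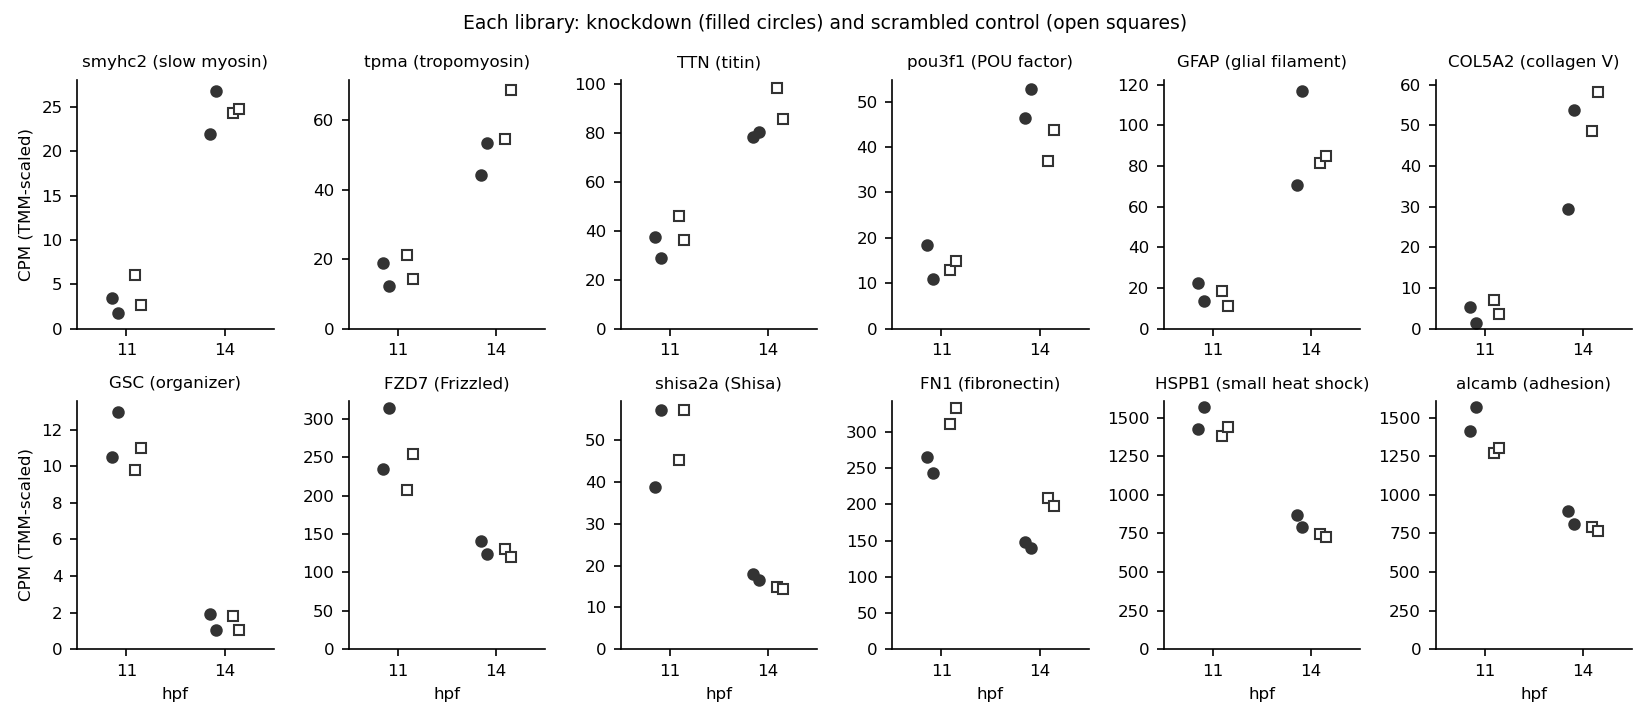
CPM of 12 genes in every library of knockdown (filled circles) and scrambled control (open squares) at 11 and 14 hpf, replicates side by side, with axes from 0. In each panel both knockdown libraries at 14 hpf lie on the same side of both at 11 hpf, as for smyhc2 (3.41 and 1.71 against 22 and 26.8 CPM) and FZD7 (235 and 314 against 141 and 124 CPM). The genes were picked among called genes, so this separation was largely set beforehand.

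Among genes of the neuromuscular junction and of calcium handling, 7 of 24 tested genes of excitation and contraction were higher and 0 lower, with a median of 1.21. The acetylcholine receptor subunit CHRNG, the gamma subunit of the embryonic muscle receptor, went from 0.487 and 0.245 CPM to 4.74 and 5.02 CPM (log2 fold change 3.73, SE 0.47, adjusted p = 0.0009). The alpha subunit CHRNA1 went from 2.43 and 1.47 to 8.19 and 8.31 CPM (2.1, SE 0.37, adjusted p = 0.0067). For both subunits the libraries of the times did not overlap. Sarcalumenin SRL (ENSDARG00000112959), a calcium-binding protein of the sarcoplasmic reticulum, went from 2.11 and 0.979 to 9.91 and 15.9 CPM (3.12, adjusted p = 0.0014). The receptor kinase musk, which clusters acetylcholine receptors, had 7.14 and 4.4 CPM and then 17.2 and 11.8 CPM (1.34, adjusted p = 0.047). The calcium pump atp2a1 had 0 counts at 11 hpf and 12 at 14 hpf, at least 5.27-fold higher. Of 31 regulators of myogenesis 4 rose and 0 fell (median 0.37). MYOD1, the factor that commits cells to the muscle lineage, went from 37.3 and 24.8 to 71.7 and 80.5 CPM (1.3, SE 0.24, adjusted p = 0.013). MEF2C (ENSDARG00000009418), a partner of the myogenic factors, went from 2.27 and 1.35 to 11.6 and 11.3 CPM (2.68, SE 0.31, adjusted p = 0.0003). MYOG, which acts later in differentiation, had 7.14 and 0.979 CPM and then 11.0 and 23.0 CPM, and it did not pass (adjusted p = 0.27). CHRNG, SRL and MEF2C kept their call without any 1 library, and SRL had 3.71 without 11 hpf replicate 1. CHRNA1, MYOD1, atp2a1 and musk lost theirs without 11 hpf replicate 2 (adjusted p 0.12 to 0.33) and without 14 hpf replicate 2 (0.086 to 0.41), which left 3 and 2 called genes of excitation and contraction and 1 regulator of myogenesis each. Among regulators of myogenesis 5 were higher and 2 lower without 11 hpf replicate 1. Musk also lost its call without 14 hpf replicate 1 (0.27) and without any 1 control library of 14 or 18 hpf or knockdown library of 18 hpf (0.077 to 0.081).

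In the nervous system 6 of 44 genes of neurogenesis rose and 0 fell (median 0.80), and 4 of 26 genes of neural progenitors rose and 0 fell (median 0.37). POU-domain factors of the neural tube rose to unlike degrees. The factor pou3f3a had 1.14 and 0.367 CPM at 11 hpf and 20.2 and 48.5 CPM at 14 hpf (log2 fold change 5.58, SE 0.54, adjusted p = 0.00055). Its relative pou3f1 went from 18.5 and 11.0 to 46.5 and 52.7 CPM (1.76, SE 0.2, adjusted p = 0.00032). POU3F2 went from 40.4 and 22.1 to 71.3 and 75.2 CPM (1.24, adjusted p = 0.0094). In all 3 the 14 hpf libraries were above the 11 hpf libraries. ELAVL3, an RNA-binding protein of newborn neurons, went from 43.8 and 45.1 to 104 and 121 CPM (1.34, SE 0.21, adjusted p = 0.0038). MYT1 (ENSDARG00000074030), a zinc-finger factor of neuronal differentiation, went from 31.8 and 35.6 to 73.2 and 80.4 CPM (1.19, adjusted p = 0.0054). Among progenitor and glial genes, GFAP, the intermediate filament of radial glia, went from 22.4 and 13.7 to 70.4 and 117 CPM (2.4, adjusted p = 0.0053). Nestin, nes, the intermediate filament of neural progenitors, went from 21.6 and 23.6 to 45.9 and 53.3 CPM (1.13, adjusted p = 0.0059). SOX2 and SOX3, which mark neural progenitors broadly, did not pass, with log2 fold changes of 0.06 and 0.27. The calls of pou3f3a and pou3f1 held without any 1 library, while the log2 fold change of pou3f3a was 6.49 and 4.91 without 11 hpf replicate 1 and 2 and 4.81 without 14 hpf replicate 2. Without 14 hpf replicate 2, 1 gene of neurogenesis and 2 of progenitors rose, with ELAVL3, MYT1, POU3F2 and nes lost (adjusted p 0.077 to 0.14), and without 11 hpf replicate 2, 3 and 2, with GFAP and POU3F2 lost (0.081 to 0.094). The counts went up without 11 hpf replicate 1, to 12 genes of neurogenesis higher and 0 lower and to 6 of progenitors higher and 1 lower.

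Regional patterning genes were called in both directions. In the eye and forebrain list 0 of 38 genes rose and 3 fell, while the median log2 fold change of the list was 0.67. The balance of these calls turned without 11 hpf replicate 1, with 9 higher and 2 lower, and DESeq2 called 3 in each direction. The eye-field factor six7 went from 55.8 and 53.2 CPM to 21.3 and 11.1 CPM (log2 fold change -1.77, SE 0.3, adjusted p = 0.0069). The retinal homeobox factor rx3 went from 41.4 and 16.4 to 8.83 and 9.35 CPM, with the 11 hpf replicates far apart (-1.65, SE 0.38, adjusted p = 0.042). OTX2, which specifies forebrain and midbrain, went from 140 and 137 to 103 and 88.3 CPM (-0.54, adjusted p = 0.033). Of 37 midbrain and hindbrain genes 1 rose and 2 fell (median 0.15), against 7 higher and 3 lower without 11 hpf replicate 1. The Iroquois factor irx7 went from 106 and 135 to 68.9 and 57.9 CPM (-0.93, SE 0.15, adjusted p = 0.0037). DBX1 (ENSDARG00000001859), a factor of interneuron progenitors, went from 6.49 and 5.99 to 13.4 and 20.1 CPM (1.43, adjusted p = 0.025). None of these 5 genes kept its call without 14 hpf replicate 2 (adjusted p 0.12 to 0.56), and all but rx3 lost it without 11 hpf replicate 2 (0.059 to 0.17). OTX2 and rx3 lost theirs without 11 hpf replicate 1 (0.057 to 0.17), where rx3 had -0.85, and without 14 hpf replicate 1 (0.055 to 0.19). Both also lost their call without single control libraries of 14 or 18 hpf or knockdown libraries of 18 hpf (0.051 to 0.076).

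Of 41 extracellular matrix genes 6 rose and 0 fell (median 0.74), and 40 of the 41 had a log2 fold change above 0. Matrix genes kept in other lists were also called lower, fibronectin FN1, described below, and laminin LAMB1. The fibrillar collagen COL5A2 went from 5.36 and 1.35 CPM to 29.5 and 53.7 CPM (log2 fold change 3.72, SE 0.45, adjusted p = 0.0021). Thrombospondin THBS4 (ENSDARG00000020072), a matrix protein of muscle attachment sites, went from 11.8 and 7.22 to 50.2 and 66.7 CPM (2.64, SE 0.27, adjusted p = 0.00024). The hyaluronan link protein hapln1a went from 65.1 and 35.7 to 148 and 179 CPM (1.71, SE 0.24, adjusted p = 0.0032). For these 3 genes no 11 hpf library reached a 14 hpf library. The others called were COL5A1 (1.94), COL1A2 (1.88) and SPARC (1.18), a collagen-binding glycoprotein. In the notochord and Hedgehog list 5 of 35 genes rose and 2 fell (median 0.25), and 4 of the 5 encode collagens of cartilage, notochord or basement membrane. COL11A1 went from 49.7 and 39.1 to 99.5 and 104 CPM (1.2, SE 0.17, adjusted p = 0.0018). COL9A2 (1.45), col9a1b (1.03) and col8a1a (1.84) rose too, as did GLI3 (1.94), a transcription factor of Hedgehog signalling. The factor twist2 went from 17 and 26.8 to 11.0 and 6.24 CPM (-1.37, adjusted p = 0.016). The laminin chain LAMB1 (ENSDARG00000101209), a basement membrane protein, went from 283 and 279 to 219 and 198 CPM (-0.43, adjusted p = 0.036). Neither SHH gene passed, at 0.25 and -0.79, and noto, a notochord factor, did not either (-0.69, adjusted p = 0.28). In the neural crest list 1 of 31 genes rose. It was the endothelin receptor ednrab, at 1.95 and 0.122 CPM at 11 hpf and 13.1 and 32.0 CPM at 14 hpf (4.59, SE 0.65, adjusted p = 0.0059). COL5A2, THBS4, hapln1a, COL11A1 and ednrab kept their call without any 1 library. COL1A2, COL5A1, COL9A2, GLI3, SPARC, col9a1b and twist2 lost theirs without 11 hpf replicate 2 (adjusted p 0.092 to 0.24) and, with col8a1a, without 14 hpf replicate 2 (0.11 to 0.39), which left 3 called matrix genes each time. In the matrix list 11 genes were called without 11 hpf replicate 1, and DESeq2 called 10, all higher. The notochord and Hedgehog list kept 2 calls without 11 hpf replicate 2 and 1 without 14 hpf replicate 2, and 3 neural crest genes rose without 11 hpf replicate 1. LAMB1 lost its call without any 1 knockdown library of 11 or 14 hpf (0.06 to 0.54) and without either control of 14 hpf, either knockdown library of 18 hpf or control 18 hpf replicate 1 (0.051 to 0.066). GLI3, SPARC and col9a1b lost theirs without 14 hpf replicate 1 (0.056 to 0.077), and SPARC without any 1 control library of 14 or 18 hpf or knockdown library of 18 hpf (0.059 to 0.066). The log2 fold changes of ednrab, COL5A2 and GLI3 were 7.32, 4.94 and 3.05 without 11 hpf replicate 1 and 3.54, 2.96 and 1.26 without replicate 2, and ednrab had 3.79 without 14 hpf replicate 2.

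The lists of vessels, blood, heart and kidney held 2 to 4 called genes each, and S1PR1, described first, is in none of them. The sphingosine receptor S1PR1, which acts in vessel formation and cell migration, went from 1.62 and 1.22 CPM to 11.2 and 12.1 CPM (log2 fold change 3.04, SE 0.33, adjusted p = 0.0003), and it kept its call without any 1 library. In the endothelium list 2 of 26 genes rose (median 0.69). VE-cadherin cdh5, the junction protein of endothelium, had 0.162 and 0 CPM, both under 3 counts, and then 2.58 and 3.64 CPM (5.12, adjusted p = 0.0049). The VEGF receptor kdrl went from 1.3 and 2.69 to 7.54 and 6.24 CPM (1.73, adjusted p = 0.032). In both the later libraries were higher. Of 27 blood genes SPI1, the PU.1 factor of myeloid cells, rose from 0.487 and 0.122 to 4.52 and 6.41 CPM (4.18, adjusted p = 0.0059), and the anion exchanger SLC4A1 (ENSDARG00000012881) fell from 3.08 and 5.51 to 1.08 and 0.693 CPM (-2.3, adjusted p = 0.018). The erythroid factor gata1a had 0.649 and 0 CPM and then 1.72 and 5.2 CPM and did not pass (adjusted p = 0.056). In the kidney list 3 of 24 genes rose and 1 fell (median 0.35). Among those that rose, lhx1b, a LIM homeobox factor, had 0 counts at 11 hpf and 16 at 14 hpf, at least 7.63-fold higher. In the heart list 2 of 24 genes rose and 0 fell (median 0.15), the MEF2C gene described above and the cardiac troponin T gene TNNT2 (ENSDARG00000020610). TNNT2 went from 0.325 and 0 to 2.15 and 1.39 CPM (3.45, SE 0.83), at the threshold, and it lost its call without any 1 knockdown library of 11, 14 or 18 hpf other than 11 hpf replicate 1, where it had 6.43, and without any 1 control of 11, 14 or 18 hpf (adjusted p 0.051 to 0.34). Cdh5, kdrl, SPI1, SLC4A1 and lhx1b lost their calls without 11 hpf replicate 2 (adjusted p 0.059 to 0.23) and without 14 hpf replicate 2 (0.077 to 0.39), and kdrl, SLC4A1 and lhx1b without 14 hpf replicate 1 (0.061 to 0.15). Kdrl was also lost without 11 hpf replicate 1 (0.11) and without either control library of 14 hpf or knockdown library of 18 hpf (0.052 to 0.058). Without 11 hpf replicate 1, cdh5 and SPI1 had 7.27 and 5.27, and without replicate 2 cdh5, SPI1, kdrl and TNNT2 had 4.11, 3.44, 2.38 and 2.35. Without either replicate 2 no gene of the vessel, blood or kidney lists was called, and without 11 hpf replicate 1 the vessel and blood lists each had 4.

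Some genes of the organizer and the tailbud were lower at 14 hpf. In the tailbud and presomitic list 0 of 33 genes rose and 6 fell, and the median was -0.34. The list includes GSC and chrd, described next. Goosecoid, GSC, a homeobox factor of the gastrula organizer, went from 10.5 and 13 CPM to 1.94 and 1.04 CPM (log2 fold change -3.01, SE 0.37, adjusted p = 0.00076). Chordin, chrd, an antagonist of BMP, went from 145 and 230 to 97.6 and 79.3 CPM (-1.09, SE 0.21, adjusted p = 0.018). In both genes every 14 hpf library was below every 11 hpf library. The caudal factor cdx1a went from 134 and 178 to 74.3 and 62.7 CPM (-1.19, adjusted p = 0.015). WNT8A (ENSDARG00000078507), a posteriorizing Wnt ligand, went from 22.2 and 33.5 to 11.6 and 12 CPM (-1.25, adjusted p = 0.023). The other members called were cdx4 (-0.45) and sp5l (-0.7), both at an adjusted p of 0.047. The mesoderm factors tbxta (-0.31), tbx16 (-0.34) and msgn1 (-0.13) did not pass. Outside the list, and with no list of the organizer to count, the secreted Wnt antagonist frzb went from 19.1 and 46.0 to 7.54 and 5.2 CPM (-2.38, SE 0.39, adjusted p = 0.0089). Lefty, lft1, an inhibitor of Nodal, went from 16.1 and 20.8 to 5.39 and 5.02 CPM (-1.83, SE 0.36, adjusted p = 0.013). The Nodal ligand ndr2 went from 2.92 and 5.63 to 1.29 and 0.866 CPM (-2.01, adjusted p = 0.048), and pnhd, a secreted gastrula factor, from 6.82 and 12.1 to 1.29 and 1.04 CPM (-3.03, adjusted p = 0.0039). GSC kept its call without any 1 library. Without 14 hpf replicate 2 all the other genes named as lower here lost theirs (adjusted p 0.13 to 0.58). Without 11 hpf replicate 2 chrd, cdx1a, WNT8A, cdx4, sp5l, lft1 and ndr2 did, and frzb had -1.6. In each of these fits GSC alone of the tailbud list stayed called. Cdx1a, WNT8A, cdx4, sp5l, lft1 and ndr2 lost theirs without 14 hpf replicate 1 (0.05 to 0.13). Ndr2, cdx4 and sp5l also did without single libraries of other groups, namely controls of 14 and 18 hpf, knockdowns of 18 hpf for ndr2 and cdx4, and controls of 11 hpf for cdx4 (0.052 to 0.079).

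In the Wnt list 1 of 34 genes rose and 2 fell (median 0.03), and in the FGF list 1 of 22 rose and 2 fell (median 0.07). Those that rose were SP8 (ENSDARG00000011870), a zinc-finger factor, from 20.8 and 7.46 CPM to 39.6 and 45.7 CPM (log2 fold change 1.63, adjusted p = 0.022), and the FGF-binding protein fgfbp3, from 1.46 and 1.1 to 5.39 and 6.24 CPM (2.19, adjusted p = 0.011). Frizzled FZD7 (ENSDARG00000027589), a Wnt receptor, went from 235 and 314 CPM to 141 and 124 CPM (log2 fold change -1.05, SE 0.15, adjusted p = 0.0018). FZD8 (ENSDARG00000038569) went from 25.2 and 41.2 to 17.9 and 7.97 CPM (-1.39, adjusted p = 0.025). The Shisa protein shisa2a, a family known in Xenopus for holding Frizzled and FGF receptors in the endoplasmic reticulum, went from 38.9 and 57.3 to 17.9 and 16.5 CPM (-1.49, SE 0.21, adjusted p = 0.0018). The FGF receptor fgfr4 went from 436 and 613 to 342 and 321 CPM (-0.66, adjusted p = 0.021), and the phosphatase DUSP6, an inhibitor of ERK, from 297 and 344 to 242 and 236 CPM (-0.43, adjusted p = 0.042). Among genes of segment boundaries, fibronectin FN1 (ENSDARG00000019815), the matrix protein around somites, went from 265 and 244 to 148 and 140 CPM (-0.82, SE 0.11, adjusted p = 0.0009). The ephrin EFNB2 (ENSDARG00000074050), which acts in boundary formation, went from 84.2 and 93.1 to 52.1 and 49.2 CPM (-0.81, adjusted p = 0.004). In none of the genes so far named here did the 14 hpf libraries overlap the 11 hpf libraries. FN1 and EFNB2 belong to the segmentation list, where 1 of 32 genes rose, NOTCH1 (ENSDARG00000052094, 1.61), and 2 fell. The oscillating genes her1 (-0.46) and her7 (-0.37) and the Delta ligand dlc (-0.06) did not pass. The chemokine receptor CXCR4 (ENSDARG00000057633) went from 32.8 and 41.2 to 20.2 and 17.1 CPM (-0.99, adjusted p = 0.022). GATA3 went from 153 and 139 to 90.7 and 56.1 CPM (-1, adjusted p = 0.016). FZD7, shisa2a and FN1 kept their call without any 1 library. FZD8, fgfr4, EFNB2, NOTCH1, CXCR4, GATA3, SP8, fgfbp3 and DUSP6 lost theirs without 11 hpf replicate 2 (adjusted p 0.053 to 0.34) and without 14 hpf replicate 2 (0.1 to 0.43). Without 14 hpf replicate 1 fgfr4, CXCR4, SP8 and DUSP6 were lost (0.055 to 0.15) and FZD8 had -2.06, and without 11 hpf replicate 1 NOTCH1 was lost (0.054). SP8 had 2.51 without 11 hpf replicate 1 and 1.04 without replicate 2. DUSP6 was also lost without any 1 control of 11, 14 or 18 hpf or knockdown library of 18 hpf (0.051 to 0.073). The Wnt list had 3 higher and 2 lower and the FGF list 4 and 3 without 11 hpf replicate 1.

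Among abundant genes, the small heat shock protein HSPB1 went from 1430 and 1570 CPM to 873 and 792 CPM (log2 fold change -0.85, SE 0.12, adjusted p = 0.0013). The adhesion molecule alcamb went from 1410 and 1570 to 898 and 811 CPM (-0.8, SE 0.1, adjusted p = 0.00058). The ferritin gene fthl27, of an iron-storage family, went from 862 and 803 to 577 and 437 CPM (-0.72, adjusted p = 0.0047). In all 3 every 14 hpf library lay below every 11 hpf library. The RNA-binding proteins rbm4.3 (-0.64) and hnrnpl2 (-0.48) fell by less. Of the abundant genes that rose, alpha tubulin TUBA1A went from 187 and 170 to 389 and 311 CPM (0.97, adjusted p = 0.0071), and the tetraspanin CD81 (ENSDARG00000036080) from 362 and 227 to 524 and 637 CPM (0.98, adjusted p = 0.0072). Apart from the abundant genes, the DNA methyltransferase DNMT3A (ENSDARG00000015566) went from 6 and 4.4 to 16.4 and 24.6 CPM (1.99, adjusted p = 0.0037). In its list, of transposon silencing, 2 of 31 genes rose and 0 fell (median -0.07). HSPB1 and alcamb kept their call without any 1 library. Fthl27, rbm4.3, CD81, hnrnpl2 and DNMT3A lost theirs without 14 hpf replicate 2 (adjusted p 0.1 to 0.47), and TUBA1A, hnrnpl2 and DNMT3A without 11 hpf replicate 2 (0.059 to 0.2). TUBA1A was also lost without 14 hpf replicate 1 (0.062).

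Housekeeping lists had few or no calls in the fit without a replicate block. Of 80 ribosomal protein genes 0 were called by edgeR or DESeq2, although 32 had an unadjusted p under 0.05 and were higher. Against 52.5% of all genes, 78 of the 80 had a log2 fold change above 0, with a median of 0.23. The 80 are members of a list and not replicates. Their summed level was 77900 and 59800 CPM at 11 hpf and 76100 and 85900 CPM at 14 hpf, so the times overlapped. Without 11 hpf replicate 1, 26 of them were called higher, and without 11 hpf replicate 2, 0. None of 96 genes of oxidative phosphorylation (median 0.13), 52 of the cell cycle (0.03), 48 of the proteasome (0.06), 24 of p53 and apoptosis (0.03) or 12 of interferon and RNA sensing (-0.24) was called by edgeR or DESeq2. At an unadjusted p under 0.05 these lists held 5, 5, 1, 1 and 3 genes in turn. With replicate number added to the fit at each time (a replicate block within time), they held 4, 7, 0, 1 and 1 called genes. The same fit called 49 ribosomal protein genes, all higher. Of 67 translation factors, EEF1B2 rose (0.48), and with the replicate block within time 5 rose and 6 fell. In the Hox clusters 0 of 13 genes of paralog groups 1 to 4 and 0 of 12 of groups 5 to 8 were called, with medians of 0.69 and 0.20 and with 4 and 1 genes at an unadjusted p under 0.05, all higher. DESeq2 called 1 and 0. In groups 9 to 13, which pattern the trunk and tail, 2 of 22 rose (median 0.78), and 5 without 11 hpf replicate 1. They were HOXC11 and HOXA11 (ENSDARG00000007009), the latter going from 5.03 and 3.43 to 12.3 and 19.2 CPM (1.92, adjusted p = 0.0059). Of 44 epidermis genes 1 rose and 1 fell (median -0.15): COL14A1 (1.36) and the epidermal gene lye, from 423 and 473 to 275 and 182 CPM (-0.97, adjusted p = 0.0069). The keratin krt4, a marker of the outer epidermal layer, stood at 7770 and 5800 CPM and then 6410 and 7300 CPM and did not pass. The 5 genes named here as called lost their calls without 14 hpf replicate 2 (adjusted p 0.15 to 0.65), where HOXC11 had 1.59, and without 11 hpf replicate 2 (0.094 to 0.3). COL14A1 was lost without 11 hpf replicate 1 (0.055) and EEF1B2 without 14 hpf replicate 1 (0.052), control 18 hpf replicate 2 or knockdown 18 hpf replicate 2 (0.05 to 0.053). HOXC11 was lost without any 1 control library of 14 or 18 hpf or knockdown library of 18 hpf (0.058 to 0.079).

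**Figure D3:**
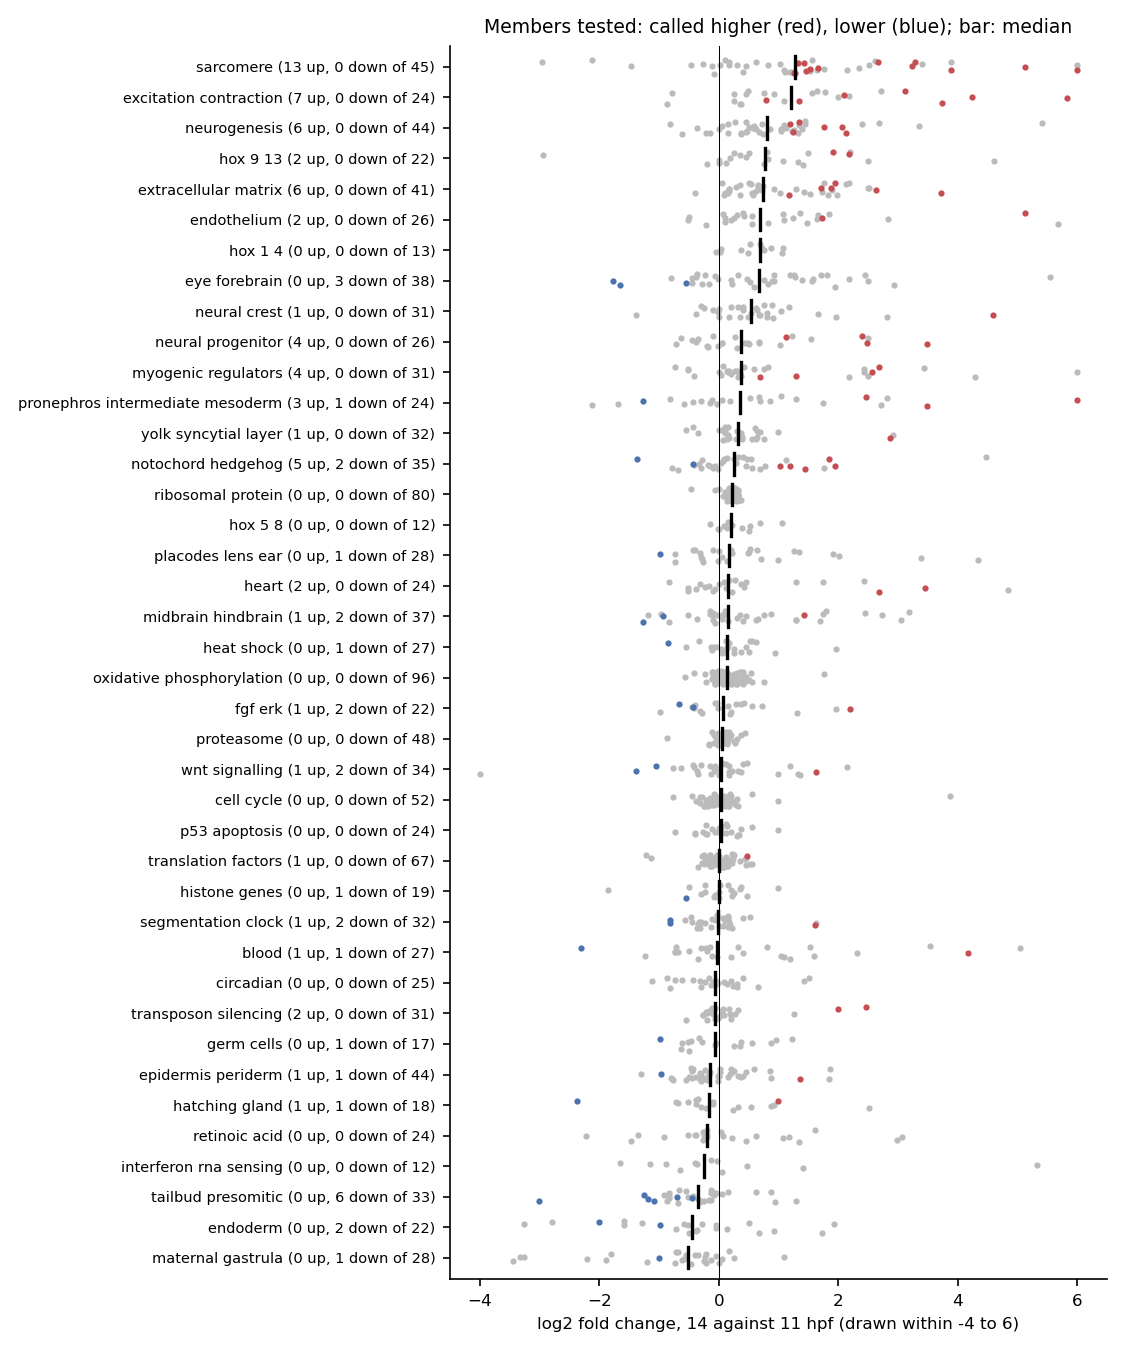
Log2 fold change of every tested member of the 40 gene lists, ordered by median (black bar), with members called higher in red and lower in blue. Sarcomere genes (13 of 45 higher) and excitation and contraction genes (7 of 24 higher) stand at the top. The tailbud and presomitic list (6 of 33 lower) stands near the bottom. Below it lie the endoderm list (median -0.44, 2 of 22 lower) and the maternal and gastrula list (median -0.51, 1 of 28 lower).

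Repeat families were counted by summing over their copies, and reads shared by related families could be split between them. Of 862 families 2 rose and 4 fell, 0.696% of all families (0.232% higher and 0.464% lower). Both parts counted of an ERV1-N6 retrovirus were among them. The internal part ERV1-N6-I_DR went from 72.9 and 124 CPM to 22.8 and 21.3 CPM (log2 fold change -2.16, SE 0.36, adjusted p = 0.016). Its long terminal repeat ERV1-N6-LTR_DR went from 8.6 and 12.6 to 3.02 and 1.73 CPM (-2.2, SE 0.43, adjusted p = 0.017). ERV1-N4-LTR_DR went from 591 and 520 to 341 and 271 CPM (-0.86, adjusted p = 0.03). In these 3 families the 14 hpf libraries lay below the 11 hpf libraries. The LINE family I-5_DR, of a class that copies itself through RNA, went from 6 and 3.06 CPM to a mean of 17.5 ± 3.42 CPM (SD, n = 2) at 14 hpf (1.98, SE 0.37, adjusted p = 0.011). ERV1-N1-I_DR went from 47.4 and 38.7 to 70 and 61.7 CPM (0.62, adjusted p = 0.038). Of the 10 BHIKHARI families BHIKHARI_LTR alone passed in the test with all libraries and the filter. BHIKHARI-2-I_DR had 46.4 and 52.7 CPM and then 106 and 142 CPM (1.32, SE 0.41, adjusted p = 0.18), and the other 8 uncalled families had log2 fold changes from -0.94 to 0.16. BHIKHARI-2-I_DR passed without either control library of 8 hpf (0.04 to 0.041), with no filter (1e-10) and with a replicate block within time (1.6e-09). BHIKHARI_LTR kept its call without any 1 library. The other 5 called families lost theirs without 11 hpf replicate 2 (adjusted p 0.14 to 0.3) and without 14 hpf replicate 2 (0.17 to 0.45), ERV1-N1-I_DR and ERV1-N6-I_DR without 14 hpf replicate 1 (0.088 to 0.22) and ERV1-N4-LTR_DR without 11 hpf replicate 1 (0.1). ERV1-N1-I_DR and ERV1-N4-LTR_DR also lost theirs without any 1 control library of 14 hpf or knockdown library of 18 hpf, and ERV1-N1-I_DR without either control of 18 hpf (0.052 to 0.072).

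**Figure D4:**
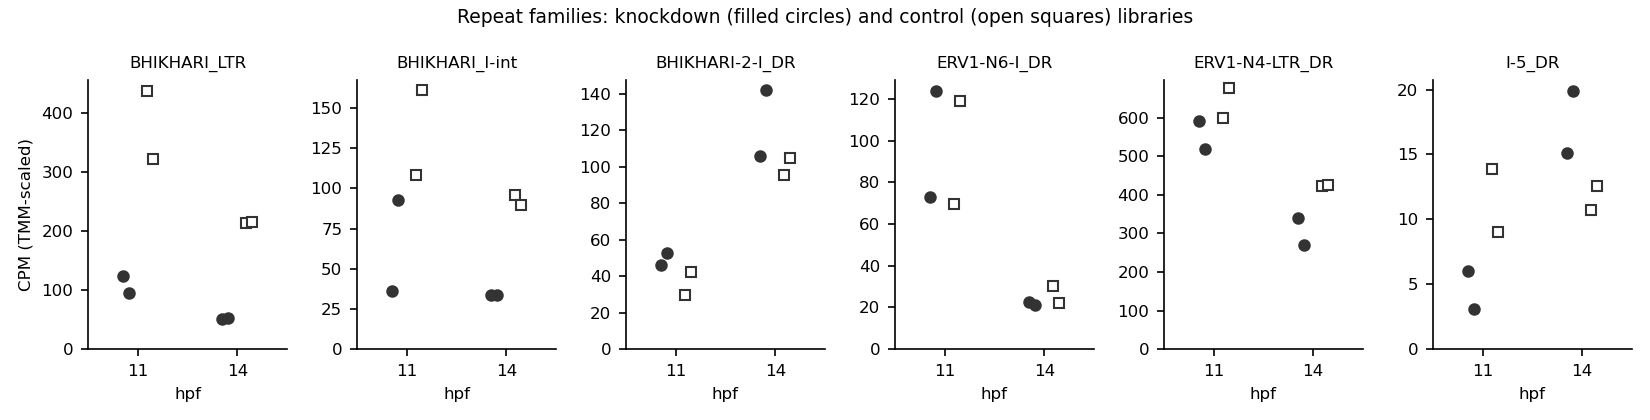
CPM of 6 repeat families in every knockdown (filled circles) and control (open squares) library at 11 and 14 hpf, with axes from 0. The knockdown libraries of BHIKHARI_LTR (124 and 95.5, then 51.5 and 53.5 CPM) lie below the control libraries at both times, and the 11 hpf knockdown replicates of BHIKHARI_I-int (36.2 and 92.9 CPM) lie far apart.

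Over the same interval the control embryos had 346 genes higher and 117 lower, 2.74% of all genes. No library was shared by these comparisons, although they shared the fit. The deviations of same-numbered knockdown and control libraries of 11 hpf correlated at 0.495, which this fit does not take into account. Of the knockdown calls, 168 higher genes were also called higher in controls, which is 78.5% of the knockdown list and 48.6% of the control list. Likewise 49 were lower in both, 68.1% and 41.9%, and 0 genes were called in opposite directions. A call in one treatment and not in the other does not show a difference, so the stage change was tested directly, as the change in knockdown minus the change in control. By edgeR 0 genes and 0 families passed, with 231 genes and 10 families at an unadjusted p under 0.05. DESeq2 called 0 genes, with 151 at an unadjusted p under 0.05. The median SE of this difference was 0.47 on the log2 scale, wider than that of the single changes.

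**Figure D5:**
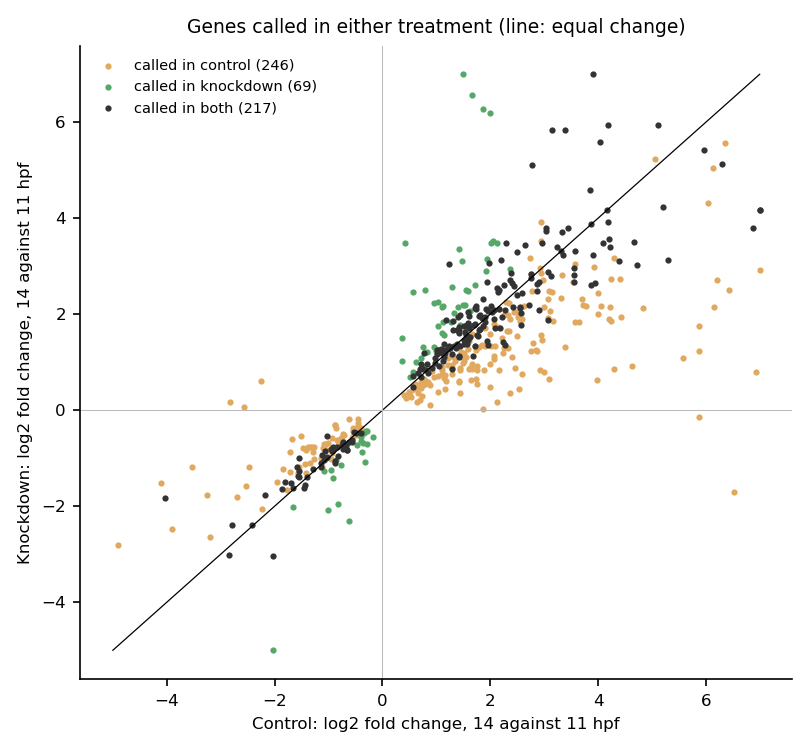
Log2 fold change from 11 to 14 hpf in knockdown (vertical) against control (horizontal) for genes called in either, drawn within -5 to 7, with the line of equal change. The 217 genes called in both lie in the upper right and lower left, 246 were called in controls alone and 69 in the knockdown alone.

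Among named genes of at least 5 CPM, S1PR1 and lft1 had the lowest p-values in that test. Genes named only by a clone or an identifier were left out. S1PR1 rose in the knockdown with a log2 fold change of 3.04 and in controls, from 4.08 and 3.63 to 7.88 and 10.3 CPM, with 1.24 (unadjusted edgeR p of the difference 0.001, adjusted p = 1). Lft1 fell by 1.83 on the log2 scale in the knockdown and by 4.03 in controls, where it went from 18.9 and 20.3 to 1.48 and 0.913 CPM (unadjusted edgeR p 0.0015, adjusted p = 1). At 11 hpf its libraries were close in both treatments, and at 14 hpf both knockdown libraries were above both controls. FOXD3, a factor of neural crest and pluripotent cells, had log2 fold changes of 0.2 in the knockdown and -0.62 in controls (unadjusted edgeR p 0.0043, adjusted p = 1), and passed in neither. Among muscle genes, the log2 fold changes in knockdown and control were 3.29 and 2.49 for smyhc2, 1.67 and 1.79 for tpma and 1.26 and 1.16 for TTN (ENSDARG00000028213). Of 45 sarcomere genes 17 rose in controls (median 1.52, against 1.28 in the knockdown), and of 33 genes of the tailbud list 7 fell (median -0.51, against -0.34). The difference, knockdown minus control, was above 0 for 14 of the 45 sarcomere genes (median -0.12) and 21 of the 33 tailbud genes (0.06). For ribosomal protein genes it was above 0 in 2 of 80 (median -0.13), against 50.8% of all genes. These shares were not tested. None of the 40 lists held a gene called for a difference.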

How the data were processed

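Polyadenylated RNA of whole embryos was prepared with a directional library protocol, per the labels' protocols. STAR and GRCz11 are named in the submitters' processing notes, while the sources used here give neither the counting program nor its strand setting. The authors deposited raw read counts, whole numbers per Ensembl gene (32520) and repeat family (1036). Reads of paralogous genes may be split in ways a count table cannot show. Symbols came from an identifier table, many in the style of the human ortholog, and genes that share a symbol are named with their identifier.

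Counts were tested with edgeR 4.0.16 in R 4.3.3 (TMM scaling, filterByExpr on the 8 groups, robust quasi-likelihood F-test) in a single fit of all 16 libraries, with 8 residual degrees of freedom and a biological coefficient of variation of 0.177. The filter kept 17756 features, with 99.76% or more of the counts in every library. Calls had a Benjamini-Hochberg adjusted p under 0.05. Library totals ran from 4399855 to 7694887. In each group the replicates differed beyond sampling noise, so all were kept as separate samples. For a group with 0 counts, a fold was bounded with 3 counts over the group, for counting error only. The script was tested on simulated counts with known changes between the knockdown groups, set in features of at least 5 CPM. It called 6% of 67 features changed 1.5-fold, 49.3% of 67 changed 2-fold and 87.9% of 66 changed 4-fold. There were 9 false calls. Smaller changes were thus mostly missed in the simulation. It gave each feature the same spread in every group. In the data the 11 hpf knockdown replicates lay farther apart on the first principal component (-8 and -44.5) than those of 14 hpf (18.3 and 32.4). The simulated rates may thus not hold for these libraries.

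Members and gene lists were chosen with earlier results of these data known. Of 1071 list entries 33 matched no symbol. The rule for naming took, among called genes of at least 5 CPM whose times did not overlap, the 12 with the largest rise and the 12 with the largest fall, and from each list the called genes lowest in p, up to 4 a direction. It added the 6 most abundant called genes in each direction, the BHIKHARI and called families, and the 6 lowest p of the difference test. Genes whose symbol only repeats a clone name or an identifier were left out. Among them was si:ch211-286o17.1, at the lowest adjusted p of any gene (log2 fold change 2.76, edgeR adjusted p = 8.7e-05). Other list members and tissue markers were named after their values were seen, and not every gene the rule names is described. DESeq2 1.42.0, other scaling and filters, a fold of 1.5 as the null, replicate blocks and leaving out each library were alternatives.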

Additional observations from a re-analysis of the deposited data

How the results depend on the processing

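All 286 genes kept their direction under every alternative that gave them a value. They were chosen for their difference in these same libraries, so their direction was largely set beforehand. Against 286 genes called, DESeq2 gave 473, no filter 885, the 4 libraries fitted alone 0, a null of 1.5-fold 84, and leaving out 1 library 48 to 704. Families, 6 at first, came to 10, 28, 0 and 0 in the same order, and 1 to 15. In controls, against 463 genes, no filter gave 1209, the 1.5-fold null 159 and leaving out 1 library 98 to 774. For the difference between treatments, 0 became 10 with no filter and stayed at 0 without any 1 library. The eye and forebrain list, with 0 higher and 3 lower, had 11 and 5 with no filter and 9 and 4 with a replicate block within time, and the matrix list, with 6 higher, had 17 and 21 higher in turn. The cause of these changes was not tested.

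The replicate numbers did not pair the knockdown samples: the deviations of same-numbered libraries at 11 and 14 hpf correlated at 0.021, with only 2 numbers. A replicate block within treatment gave 288 genes and 7 families, and 521 genes in controls. A replicate block within time, where 11 hpf knockdown and control deviations correlated at 0.495, gave 1578 genes, 32 families and 1997 genes in controls. For the difference between treatments that block called 0 genes by edgeR, with 616 at an unadjusted p under 0.05, against 231 without it. Uncalled BHIKHARI families passed in places: BHIKHARI-3-I_DR (-0.7) and BHIKHARI-3-LTR_DR (-0.85) with no filter, BHIKHARI-3-I_DR (-0.75) with the replicate block within time and BHIKHARI-5-LTR_DR (1.13) without knockdown 11 hpf replicate 1. Others changed sign: BHIKHARI-4-I_DR, at -0.19 on the log2 scale, had 0.09 with the replicate block within time. Leaving out 1 library gave -1.42 to 1.44 for BHIKHARI-4-I_DR, -0.23 to 0.5 for BHIKHARI-2-LTR_DR, -0.43 to 0.73 for BHIKHARI-4-LTR_DR, -0.15 to 0.43 for BHIKHARI-5-I_DR and -0.43 to 1.13 for BHIKHARI-5-LTR_DR.

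Each group had 2 libraries, and the median SE of a log2 fold change was 0.34.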
